A study of Homo sapiens with 18 samples.

Results

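The effect of 6 h of doxorubicin was measured in MDA-MB-231 cells that carried a doxycycline-inducible ZMYND8 construct, here called ZMYND8 cells. A total of 4 of the 18 RNA-seq libraries of the series belonged to this comparison, with 2 biological replicates of untreated ZMYND8 cells and 2 of ZMYND8 cells after doxorubicin, and they were chosen by their labels alone. The ZMYND8 cDNA sat in the lentiviral vector pInducer20, was stably introduced under neomycin/G418 selection, and was induced in both groups with 250 ng/mL doxycycline. The treated cells received 0.6 µM doxorubicin 4 h after doxycycline, which stayed in the medium throughout. A control line carried a GFP cDNA in the same vector and received the same agents. It had 2 untreated libraries and 2 at 6 h, and each line also had 2 libraries at 48 h.

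Several features limit the groups as a model. There was 1 line per construct. The counts do not separate transcripts of the construct from those of the endogenous ZMYND8 gene. The labels do not give the hour at which untreated cells were harvested, so the drug and a longer time in doxycycline cannot be told apart. Counts are relative within a library, so less RNA per cell and fewer cells cannot be told apart.

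Doxorubicin is an anthracycline that inserts between DNA bases and traps topoisomerase II on broken DNA, and it evicts histones and disturbs transcription. Cells with broken DNA slow DNA replication and hold back entry into mitosis, and p53 switches on cell-cycle inhibitors and death genes where it works normally. MDA-MB-231 is a breast cancer cell line of basal, mesenchymal type with a mutant p53. ZMYND8 is a chromatin reader that binds acetylated and methylated histones, recruits repressor complexes such as the NuRD complex and the demethylase KDM5C, and is drawn to sites of DNA damage.

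The 4 libraries held between 18300628 and 23724398 read pairs assigned to genes. Across genes, replicates of the same condition correlated at 0.995 in untreated cells and 0.996 at 6 h on the log2 CPM scale (CPM, the counts of a gene per 1000000 counts of its library, scaled by TMM factors). ZMYND8 itself, on chromosome 20 (47209214 to 47356889, hg38, minus strand), stood at 922 and 927 CPM in untreated ZMYND8 cells, at 829 and 898 CPM after 6 h, and at 209 and 208 CPM in untreated GFP cells. All 4 libraries of the ZMYND8 line therefore lay above the GFP libraries, and the change over 6 h within the line did not pass the test (log2 fold change -0.10 ± 0.04 SE, adjusted p = 0.071). It passed without replicate 2 at 6 h (-0.15, adjusted p = 0.0099), with DESeq2 (-0.11, adjusted p = 0.043), with DESeq2 size factors in edgeR (adjusted p = 0.049), with at least 10 counts in every library (adjusted p = 0.028), with a robust spread (adjusted p = 0.041) and with total counts as scale (-0.18, adjusted p = 0.00068). The 10 cell line markers, such as VIM and CD44, summed to 9670 and 10200 CPM untreated and 10400 and 10900 CPM at 6 h. The 10 luminal and epithelial markers summed to 614 and 613 CPM untreated and 337 and 354 CPM at 6 h, with PGR at no count in either group, and KRT19 and CLDN4 carried most of this sum. The 12 markers of fibroblasts, endothelium, blood and liver summed to 16.5 and 12.1 CPM untreated and to at most 11.3 CPM at 6 h, with CD3E at no count in either group.

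Among 18801 genes tested, 7674, or 40.8%, reached an adjusted p of 0.05 or less and are called changed. Of these, 4102 genes rose (21.8%) and 3572 fell (19.0%). The untreated and treated libraries did not overlap in 12320 of the genes tested (65.5%), so separate groups alone say little about a gene. With libraries scaled by total counts in place of TMM factors, 3003 rose and 4568 fell, and the median of all genes moved from -0.01 to -0.09 on the log2 scale. Most changes were small, with a median size of 0.40 on the log2 scale among the called genes. The large changes were mainly falls. A change of at least 2-fold was found in 670 falling and 229 rising genes. A second cutoff, an unadjusted p up to 0.05 together with a log2 change of 1.5 or more either way, was passed by 513 genes (2.73%), with 386 lower and 127 higher. Only 109 of these 513 genes reached 50 counts in any of the 4 libraries. The plot of change against level shows DDIT4 far below other genes of its level.

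**Figure D1:**
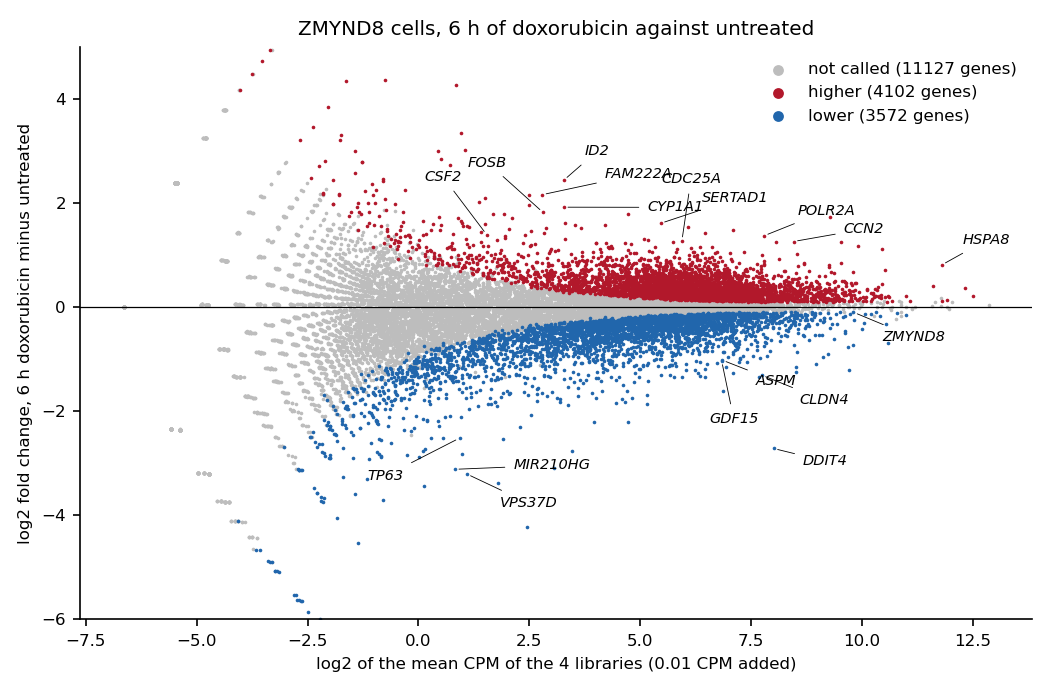
Log2 fold change between 6 h of doxorubicin and untreated ZMYND8 cells (vertical axis) against the log2 of the mean CPM of the 4 libraries (horizontal axis), with 1 point per gene. Red points rose and blue points fell at an adjusted p of at most 0.05, grey points did not pass, and 5 genes lie outside the plotted range. DDIT4, at -2.72, is the deepest fall among genes of its level, and the named rises are between 0.81 for HSPA8 and 2.44 for ID2.

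The deepest fall of a highly expressed gene was that of DDIT4 (chromosome 10, 72273924 to 72276036), the inhibitor of mTORC1 that stress and low oxygen switch on. It went from 442 and 451 CPM in untreated cells to 68.8 and 66.3 CPM at 6 h. The log2 fold change was -2.72 ± 0.05 (SE), or 6.61-fold lower (adjusted p = 6.6e-24). MIR210HG, the host transcript of the hypoxia microRNA miR-210, had 3.41 and 2.89 CPM untreated and 0.296 and 0.420 CPM at 6 h (log2 fold change -3.12 ± 0.35, adjusted p = 4.1e-08).

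The other genes among the 10 largest falls were weakly expressed, and 8 of the 10 had under 100 counts in each untreated library. VPS37D, a subunit of the ESCRT-I sorting complex, fell from 72 and 83 counts to 10 and 6. TP63, a p53 family member that marks basal epithelium, fell from 52 and 81 counts to 12 and 10. RGS14, which ends signals of G proteins, fell from 94 and 173 counts to 28 and 16, and the cholesterol exporter ABCG1 from 36 and 48 to 6 and 8. Separate groups and an adjusted p of at most 0.05 were conditions for a place among the 10 largest falls. The adjusted p-values of these 4 genes were at most 9.9e-07. TMEM121 (41 and 35 counts to 7 and 4) and the glutamate receptor subunit GRIN2D (15 and 22 counts to 0 and 5) also fell. PDE11A, a phosphodiesterase, fell from 13 and 20 counts to 2 and 3. F2RL3, a thrombin receptor, had 4 and 7 counts untreated and 0 in both treated libraries, which makes it at least 1.74-fold lower against a floor of 3 counts per library. The same 10 genes also fell in the GFP line.

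Among genes with an average log2 CPM of at least 1 and no overlap between the groups, the largest rise after that of PARN was that of ID2 (chromosome 2, 8678845 to 8684461), which blocks basic helix-loop-helix factors and responds to BMP and TGF-beta. ID2 stood at 3.69 and 2.45 CPM untreated and at 17.2 and 15.5 CPM at 6 h, a 5.41-fold rise (log2 fold change 2.44 ± 0.18, adjusted p = 2.3e-11). CYP1A1, the monooxygenase that the aryl hydrocarbon receptor induces, rose from 4.08 and 4.03 CPM to 14.9 and 15.8 CPM (log2 fold change 1.92 ± 0.12, adjusted p = 1.2e-12). FZD8, a Wnt receptor, rose from 2.35 and 2.23 CPM to 8.82 and 9.09 CPM (1.97 ± 0.17, adjusted p = 5.8e-10). In each of these genes both treated libraries lay above both untreated ones, which the selection required. The remaining genes of the 10 largest rises were FAM222A (2.16), RCBTB2 (2.15), RELN (2.10), PCOTH (2.02), FOSB (1.82), the antisense transcript MAP3K4-AS1 (1.79) and PARN (4.26), given as log2 fold changes. PARN, a poly(A) ribonuclease, had 4 and 3 counts untreated and 50 and 83 counts at 6 h. Its level was uneven elsewhere too, at 3.50 and 0.255 CPM in the replicates at 48 h.

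Genes of the cell cycle moved in opposite directions, with replication genes higher and mitotic genes lower. Of 56 tested genes of DNA replication and E2F targets, 42 rose and 1 fell, and 13 did not pass. The list median was 0.37 on the log2 scale beside -0.01 for all genes, and the share of all genes that rose was 21.8%. CDC25A, the phosphatase that opens entry into S phase, went from 34.8 and 36.8 CPM to 83.6 and 89.8 CPM (log2 fold change 1.27 ± 0.06, adjusted p = 7.3e-16). CDC6, which loads the replicative helicase, went from 90.2 and 81.4 CPM to 180 and 173 CPM (1.04 ± 0.05, adjusted p = 1.2e-15). The treated libraries were above the untreated ones for both genes, where 65.5% of all genes had groups without overlap. The origin subunit ORC1 (0.89), the cyclin CCNE1 (1.04) that drives S phase, the factor E2F1 (0.66) and the sliding clamp PCNA (0.58) also rose, as did the helicase subunits MCM2 to MCM7, between 0.35 and 0.62. GINS1, of the helicase complex, was the member that fell (-0.20 ± 0.06, adjusted p = 0.0098).

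Of 45 tested genes of mitosis and G2/M, 32 fell and 1 rose, with a median of -0.33. Over all genes the share that fell was 19.0%. ASPM, which organizes spindle poles, went from 160 and 148 CPM to 76.4 and 75.3 CPM (log2 fold change -1.02 ± 0.05, adjusted p = 6.7e-15). PSRC1, a microtubule-binding spindle protein, went from 41.9 and 41.5 CPM to 21.6 and 21.7 CPM (-0.94 ± 0.08, adjusted p = 2.8e-10). The groups did not overlap for either gene, nor did they in 65.5% of all genes. The kinesin KIF20A (-0.84), the phosphatase CDC25C (-0.77), the kinase PLK1 (-0.54) and the cyclin CCNB1 (-0.39) were lower as well. The member that rose was the kinase CDK1 (0.14 ± 0.05, adjusted p = 0.016), a change that fell short of the test without replicate 2 of the untreated cells and without replicate 1 at 6 h (adjusted p = 0.1 and 0.46).

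Promoter sequences were read for the genes that lead both cell-cycle lists, since E2F sites, CCAAT boxes and the CHR element (cell cycle genes homology region) are the known control elements of these genes. Each window runs from 250 bases before to 30 bases after the annotated start, written 5′ to 3′ on the strand of the gene, from RefSeq on GRCh38.p14. Capitals mark E2F (TTTNGCGC), CCAAT and CHR (TTTGAA) matches on either strand. The windows are chr3:48188388-48188667 (minus strand) for CDC25A, chr17:40287629-40287908 (plus strand) for CDC6, chr1:197146640-197146919 (minus strand) for ASPM and chr1:109283116-109283395 (minus strand) for PSRC1.
CDC25A: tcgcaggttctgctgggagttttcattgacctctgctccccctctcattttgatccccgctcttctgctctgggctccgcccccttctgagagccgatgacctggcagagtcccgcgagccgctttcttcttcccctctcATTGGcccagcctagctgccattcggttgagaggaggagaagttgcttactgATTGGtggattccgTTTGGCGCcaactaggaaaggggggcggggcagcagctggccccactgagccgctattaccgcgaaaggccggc
CDC6: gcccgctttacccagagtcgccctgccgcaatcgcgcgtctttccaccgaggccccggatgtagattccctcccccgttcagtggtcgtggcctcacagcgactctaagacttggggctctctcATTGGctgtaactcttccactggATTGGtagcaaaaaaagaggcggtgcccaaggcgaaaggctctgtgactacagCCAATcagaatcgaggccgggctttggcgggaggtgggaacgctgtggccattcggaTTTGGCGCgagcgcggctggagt
ASPM: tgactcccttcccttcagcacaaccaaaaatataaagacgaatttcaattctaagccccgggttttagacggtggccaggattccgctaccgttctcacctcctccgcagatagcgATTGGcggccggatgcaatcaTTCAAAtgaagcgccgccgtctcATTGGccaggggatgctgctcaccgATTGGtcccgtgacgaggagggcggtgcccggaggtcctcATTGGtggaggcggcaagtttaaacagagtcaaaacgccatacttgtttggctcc
PSRC1: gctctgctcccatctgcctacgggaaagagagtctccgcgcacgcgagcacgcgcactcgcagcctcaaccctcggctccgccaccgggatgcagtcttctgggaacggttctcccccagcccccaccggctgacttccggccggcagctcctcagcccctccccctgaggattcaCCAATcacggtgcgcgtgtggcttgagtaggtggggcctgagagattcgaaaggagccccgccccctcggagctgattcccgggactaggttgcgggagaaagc

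The CDC25A window holds an E2F match 44 bases before the start and 2 CCAAT boxes, and that of CDC6 holds an E2F match that begins 8 bases after the start and 3 CCAAT boxes. ASPM has 4 CCAAT boxes and a CHR match 113 bases before the start, and PSRC1 a single CCAAT box 74 bases before it. The same search was run on the 11336 of 14050 tested protein-coding genes that had a promoter in the table. The E2F match was in 37.0% of 46 replication promoters, 5.26% of 38 mitotic promoters and 2.75% of all promoters. The replication list also holds genes chosen as E2F targets, so an excess of E2F matches is in part built into it. The CHR match was in 60.5% of mitotic, 2.17% of replication and 9.45% of all promoters. CCAAT boxes were common everywhere, at 78.9% of mitotic, 60.9% of replication and 35.8% of all promoters. Over all genes, 42.0% of the 312 genes with an E2F match rose and 15.4% fell, against 27.5% and 22.9% of genes without one. Genes with a CHR match differed little from the others, with 24.3% higher and 25.8% lower against 28.3% and 22.3%. An ETS match (CCGGAAGT) was in 13.1% of promoters of rising and 4.32% of falling genes, beside 7.97% of all. A match describes letters in the window and was not tested as a binding site.

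**Figure D2:**
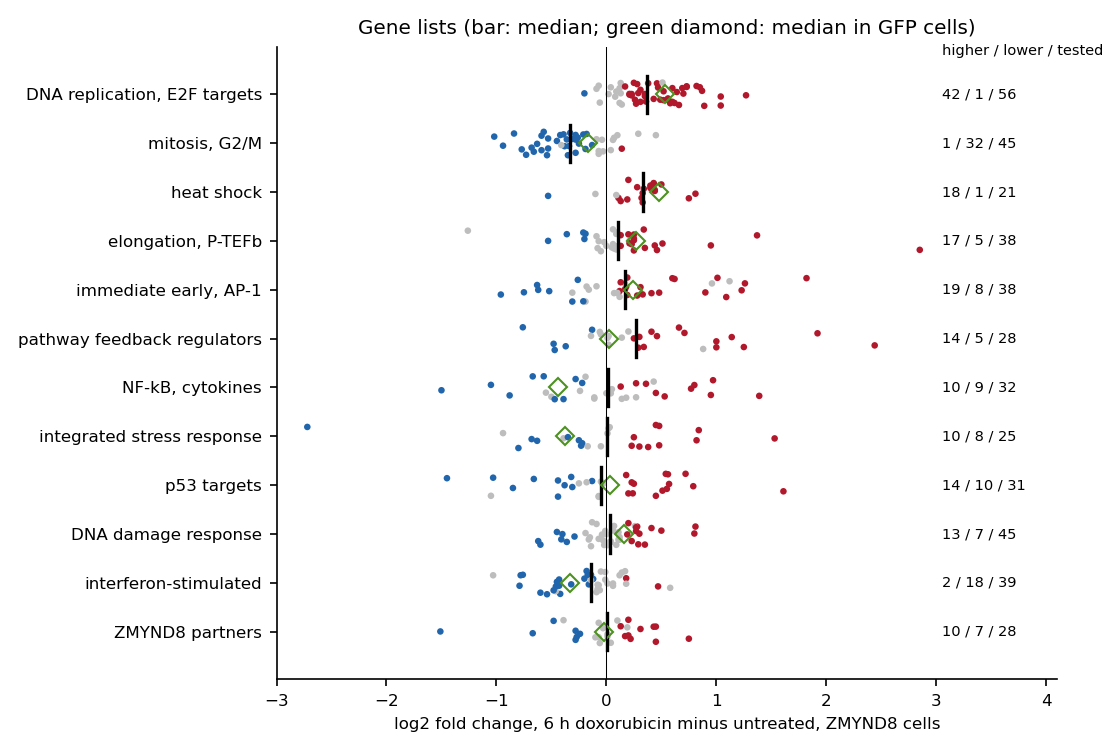
Log2 fold change at 6 h in ZMYND8 cells (horizontal axis) for the members of 12 gene lists, with 1 point per gene in red (rose), blue (fell) or grey (did not pass), a black bar at the list median and a green diamond at the median of the same list in GFP cells. Replication genes (42 of 56 higher) and mitotic genes (32 of 45 lower) lie on opposite sides of 0, while p53 targets and cytokine genes spread over both.

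POLR2A, the largest subunit of RNA polymerase II (chromosome 17, 7484366 to 7514618), stood at 122 and 124 CPM untreated and at 298 and 339 CPM at 6 h. That is 2.59-fold higher (log2 fold change 1.37 ± 0.06, adjusted p = 1.5e-16). MEPCE, which caps the 7SK RNA that holds P-TEFb inactive, rose by 0.95, and HEXIM1, the P-TEFb inhibitor of the same particle, by 0.23 ± 0.05 (adjusted p = 0.00049). CDK9, the kinase of P-TEFb, had a log2 fold change of 0.06 and did not pass. Among 38 tested genes of elongation and P-TEFb, 17 rose and 5 fell, with a median of 0.10, beside 21.8% higher and 19.0% lower over all genes. AFF1 (-0.36) and MLLT3 (-0.53), scaffolds of the super elongation complex, were among the falls. NELFE was counted among the rises, but its 92 and 8 counts at 6 h differed by more than 8-fold between replicates and overlapped the 4 and 10 counts of untreated cells. Without replicate 1 at 6 h its log2 fold change was 0.30 (adjusted p = 0.95).

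Of 38 immediate early and AP-1 genes, which growth factors and stress switch on within minutes, 19 rose and 8 fell, with a median of 0.17, beside 21.8% higher and 19.0% lower over all genes. FOSB went from 3.07 and 3.06 CPM to 11 and 10.7 CPM (log2 fold change 1.82 ± 0.17, adjusted p = 1.2e-09), and CCN2, a matrix protein downstream of YAP and TGF-beta, from 199 and 214 CPM to 479 and 510 CPM (1.26 ± 0.04, adjusted p = 1.1e-17). Treated libraries were higher than untreated ones for both, where 65.5% of all genes had groups without overlap. FOS (0.90 ± 0.11), EGR1 (0.62 ± 0.06), ATF3 (0.41 ± 0.05) and MYC (0.19 ± 0.04) rose less, with adjusted p-values of at most 0.001. JUND, an AP-1 subunit, fell from 286 and 271 CPM to 166 and 165 CPM (-0.75 ± 0.05, adjusted p = 1.2e-12). The MAP kinase phosphatase DUSP4 fell from 745 and 731 CPM to 376 and 382 CPM (-0.96 ± 0.04, adjusted p = 9.5e-17). The list therefore split between its members.

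The windows of FOSB (chr19:45467746-45468025, plus strand) and DDIT4 (chr10:72273674-72273953, plus strand) are shown as those of a rising gene and of the deepest fall among highly expressed genes, from the same source. Capitals mark TATAAA in FOSB and CCAAT in DDIT4.
FOSB: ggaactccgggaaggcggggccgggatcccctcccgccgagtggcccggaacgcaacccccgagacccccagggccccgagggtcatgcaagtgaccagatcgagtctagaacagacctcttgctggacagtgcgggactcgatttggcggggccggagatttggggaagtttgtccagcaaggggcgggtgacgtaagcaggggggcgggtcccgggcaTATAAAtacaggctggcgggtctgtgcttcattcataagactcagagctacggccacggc
DDIT4: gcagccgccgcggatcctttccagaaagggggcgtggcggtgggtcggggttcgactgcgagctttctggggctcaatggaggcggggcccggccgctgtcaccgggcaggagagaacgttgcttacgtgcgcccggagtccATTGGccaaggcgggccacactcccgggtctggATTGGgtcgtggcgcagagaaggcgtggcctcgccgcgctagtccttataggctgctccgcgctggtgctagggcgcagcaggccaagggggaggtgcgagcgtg

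The FOSB window holds TATAAA 30 bases before the start, and the DDIT4 window holds 2 CCAAT boxes. TATAAA on either strand was in 17.5% of the 103 promoters of genes that rose at least 2-fold, 4.53% of the 353 that fell at least 2-fold, and 5.88% of all promoters.

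The p53 target genes did not move together. Of 31 tested, 14 rose and 10 fell, with a median of -0.05, where 21.8% of all genes rose and 19.0% fell. CDKN1A, the cyclin-dependent kinase inhibitor p21, went from 133 and 135 CPM to 155 and 159 CPM, a rise of 0.23 ± 0.04 (adjusted p = 7.5e-05). MDM2, the ligase that degrades p53, fell from 85.7 and 87.2 CPM to 64.6 and 62.5 CPM (-0.44 ± 0.06, adjusted p = 2.2e-07). Both genes had separate groups, as had 65.5% of all genes, with CDKN1A higher and MDM2 lower after the drug. SERTAD1, a cofactor of CDK4 and E2F, rose most (1.61 ± 0.07), from 20.8 and 22.5 CPM to 65.2 and 67.6 CPM. The BH3-only death gene BBC3 fell from 15.9 and 17.5 CPM to 6.21 and 6.04 CPM (-1.45 ± 0.13, adjusted p = 3.8e-10), and the stress cytokine GDF15 from 161 and 146 CPM to 77.6 and 72.1 CPM (-1.03 ± 0.06, adjusted p = 6.7e-14).

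Of 45 tested genes that sense and repair DNA breaks, 13 rose, 7 fell and 25 did not pass, with a median of 0.04. Over all genes 40.8% were called, so the number called was near that of the background. The resecting nuclease EXO1 (0.81 ± 0.06) and FANCM (0.80 ± 0.10), a translocase of the Fanconi anaemia pathway, rose. H2AX, the histone variant phosphorylated at breaks, fell from 111 and 103 CPM to 65.7 and 73.8 CPM (-0.62 ± 0.05, adjusted p = 2.9e-10), and the break-binding protein TP53BP1 fell by 0.60 on the log2 scale. Both targets of doxorubicin were lower. TOP2A, the topoisomerase of dividing cells, went from 768 and 770 CPM to 606 and 617 CPM (-0.33 ± 0.04, adjusted p = 2.5e-08), and TOP2B from 197 and 194 CPM to 160 and 162 CPM (-0.27 ± 0.04, adjusted p = 8.3e-06). Of the 20 genes of topoisomerases and doxorubicin handling, 4 rose, with TOP3A (0.74) and the quinone reductase NQO1 (0.44) in the lead, and 5 fell, which is near the background of 21.8% and 19.0%. The carbonyl reductase CBR3 was among these at -0.36, and did not pass without replicate 2 of the untreated cells (adjusted p = 0.062).

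Cytokine and NF-kB feedback genes spread widely around 0. Of 32 tested, 10 rose and 9 fell, with a median of 0.02, where 21.8% of all genes rose and 19.0% fell. TNFAIP3, the ubiquitin-editing inhibitor A20, went from 28.4 and 28.9 CPM to 54.6 and 57.7 CPM (log2 fold change 0.97 ± 0.07, adjusted p = 5.5e-12), and the growth factor CSF2 from 21 and 45 counts to 101 and 66 counts (1.39 ± 0.23, adjusted p = 1.7e-05). The cytokine IL11 fell from 208 and 199 CPM to 103 and 93.9 CPM (-1.05 ± 0.05, adjusted p = 5.8e-15). CSF3 fell from 27 and 41 counts to 16 and 7 counts (-1.50 ± 0.33, adjusted p = 0.00043).

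Among 28 genes listed as feedback regulators of TGF-beta, BMP, Notch and cytokine signaling, 14 rose and 5 fell, with a median of 0.27. Over all genes 21.8% rose and 19.0% fell. The list also holds CYP1A1 (1.92), which the aryl hydrocarbon receptor induces, so the title of the list does not describe every member. Besides ID2, the related inhibitors ID3 (1.14) and ID4 (1.00) rose. TGIF1, a corepressor of SMAD factors, fell (-0.48 ± 0.05), and so did NRARP, a Notch target that limits Notch (-0.76 ± 0.26, adjusted p = 0.021). The fall of NRARP did not pass when replicate 2 of the untreated cells (adjusted p = 0.12) or replicate 1 at 6 h (adjusted p = 0.39) was left out.

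The integrated stress response genes went both ways, with 10 of 25 higher, 8 lower and a median of 0.01, where 21.8% of all genes rose and 19.0% fell. ATF5, a stress factor translated when eIF2 is phosphorylated, went from 35.3 and 34.1 CPM to 97.7 and 102 CPM (log2 fold change 1.53 ± 0.07, adjusted p = 1.8e-15). The amino acid transporter SLC7A5 rose by 0.84 ± 0.05, from 515 and 535 CPM to 899 and 980 CPM. DDIT4 and CHAC1 (-0.80 ± 0.21), which degrades glutathione, were the 2 deepest falls called in the list. Without replicate 1 of the untreated cells CHAC1 had a log2 fold change of -0.57 and did not pass (adjusted p = 0.067). Heat shock genes were mostly higher, with 18 of 21 tested up, 1 down and a median of 0.33, where 21.8% of all genes rose. HSPA8, the constitutive chaperone of the HSP70 family, went from 2520 and 2640 CPM to 4580 and 4470 CPM (0.81 ± 0.04, adjusted p = 9.8e-16), and the small chaperone HSPB8 rose by 0.75. DNAJB1, a cochaperone of HSP70, fell from 599 and 626 CPM to 423 and 427 CPM (-0.53 ± 0.04, adjusted p = 1.6e-11).

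Of 39 tested interferon-stimulated genes, 18 fell, 2 rose and 19 did not pass, with a median of -0.14, where 19.0% of all genes fell and 21.8% rose. PARP9, which with DTX3L modifies histones in the antiviral response, fell from 18.7 and 18.5 CPM to 10.7 and 10.7 CPM (-0.79 ± 0.09, adjusted p = 1e-07). The transcription factor IRF1 rose by 0.47. Small nucleolar RNA host genes had 12 of 28 members higher and 2 lower, beside 21.8% and 19.0% of all genes, with SNHG1 (0.88) and SNHG15 (0.83) in the lead and SNHG18 (-0.42) and SNHG4 (-0.41) lower. Without replicate 2 of the untreated cells SNHG18 did not pass (adjusted p = 0.14).

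Cytosolic ribosomal protein genes shifted together by a small amount. Of 81 tested, 65 rose and 0 fell, where 21.8% of all genes rose, with a median of 0.21, and 79 members had a log2 fold change above 0. RPL9 went from 27.4 and 26.6 CPM to 43.7 and 42.0 CPM (0.67 ± 0.08), and RPS26 from 56.5 and 57.0 CPM to 74.5 and 77.6 CPM (0.42 ± 0.06). Many ribosomal protein genes have processed pseudogenes that share reads with them, so their single values are uncertain. With libraries scaled by total counts, 49 of the 81 rose and 0 fell. Of 23 replication-dependent histone genes with enough counts, 1 rose, 2 fell and 20 did not pass, beside 21.8% higher and 19.0% lower over all genes. The falls, H2BC6 (-0.45) and H3-7 (-0.53), lost the call with DESeq2 and with no filter beyond 1 count. The mRNA of replication-dependent histone genes normally lacks the poly(A) tail by which these libraries were purified. Where 19.0% of all genes fell, the 13 genes of the mitochondrial genome had 1 called fall, MT-ND3 (-0.19 ± 0.07, adjusted p = 0.034). Its groups overlapped, and the log2 fold change was 0.02 without replicate 2 of the untreated cells. Zinc finger genes had no common direction, with 36 higher and 30 lower of 220 on chromosome 19, and 61 higher and 41 lower of 213 elsewhere, beside 21.8% higher and 19.0% lower over all genes.

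The study assayed 18 genes of stemness, drug resistance and epithelial to mesenchymal transition one by one, and it chose them for this biology in the same cells. Some, such as ESA (EPCAM) and E-cadherin (CDH1), were assayed as protein. In culture its drug treatments ran for 48 h, so measure and time can differ from the values here. The filter over all 12 inducible libraries kept 14 of the 18 genes, but only 12 reached 10 counts in a library of this comparison. Of these 12, 4 rose, 2 fell and 6 did not pass, with a median of -0.07, beside 21.8% higher and 19.0% lower over all genes. SNAI2, a repressor of epithelial genes, rose by 0.74 ± 0.05, and the hyaluronan receptor CD44 went from 642 and 679 CPM to 842 and 830 CPM (0.34 ± 0.04, adjusted p = 5.9e-08). The Polycomb subunit BMI1 (0.32 ± 0.05) and SOX9 (0.25 ± 0.06) rose as well. NOTCH1 fell from 82.6 and 77.4 CPM to 54.1 and 68.9 CPM (-0.38 ± 0.07, adjusted p = 0.0001) and ZEB1 by 0.22 on the log2 scale. The mesenchymal filament VIM stood at 3830 and 4180 CPM untreated and 4120 and 4450 CPM at 6 h, with overlapping groups and an adjusted p of 0.079, and passed at 0.16 without replicate 2 of the untreated cells (adjusted p = 0.0062) or replicate 1 at 6 h (adjusted p = 0.011). The drug efflux pump ABCB1 had 0 counts in all 4 libraries, which allows up to 3 counts in each, and the pump ABCC1 stood at 29.0 and 18.9 CPM against 18 and 22.2 CPM (adjusted p = 0.22). Without replicate 2 of the untreated cells ABCC1 passed at -0.53 (adjusted p = 0.0039).

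Of 28 tested genes, ZMYND8 and its chromatin partners, 10 rose and 7 fell, with a median of 0.01, beside 21.8% higher and 19.0% lower over all genes. EED (0.75 ± 0.06) and EZH2 (0.45), of the Polycomb repressive complex that methylates H3K27, and the deacetylase HDAC2 (0.45) rose. EED went from 41.7 and 37.7 CPM to 66.2 and 67.2 CPM. The H3K4 methyltransferase KMT2A fell from 165 and 131 CPM to 91.2 and 94.3 CPM (-0.67 ± 0.07, adjusted p = 2.7e-08), and the H3K4 demethylases KDM5B (-0.48) and KDM5A (-0.27) were lower. KDM5C had a log2 fold change of 0.10 and did not pass. RCOR2, a CoREST subunit, fell from 12 and 15 counts to 6 and 3 counts (adjusted p = 0.029), and did not pass when replicate 1 or 2 of the untreated cells or replicate 2 at 6 h was left out (adjusted p = 0.077, 0.087 and 0.19).

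The direction of change varied with the length of the gene. Among 14050 tested protein-coding genes, 29.7% of the 1107 genes that span up to 5 kb rose and 12.9% fell, with a median of 0.07. Among the 845 genes over 250 kb, 6.86% rose and 36.9% fell, with a median of -0.28. The share that fell grew with each class in between, and genes of 50 to 100 kb had nearly even shares (24.9% higher and 23.5% lower). Genes over 250 kb were also less expressed, with a median log2 CPM of 3.0 beside 4.16 up to 5 kb. Within genes of an average log2 CPM of 3 to 7, 57.5% of 388 genes over 250 kb fell and 9.28% rose, against 14.4% and 42.6% of 514 genes up to 5 kb. Genes with over 20 exon blocks fell more often (33.6% of 2856) than genes with 2 to 5 (16.9% of 2550). The GFP line showed the same order, with 44.7% of genes over 250 kb and 22.3% of genes up to 5 kb lower. No test was run on these shares, since genes are not replicates of a condition.

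**Figure D3:**
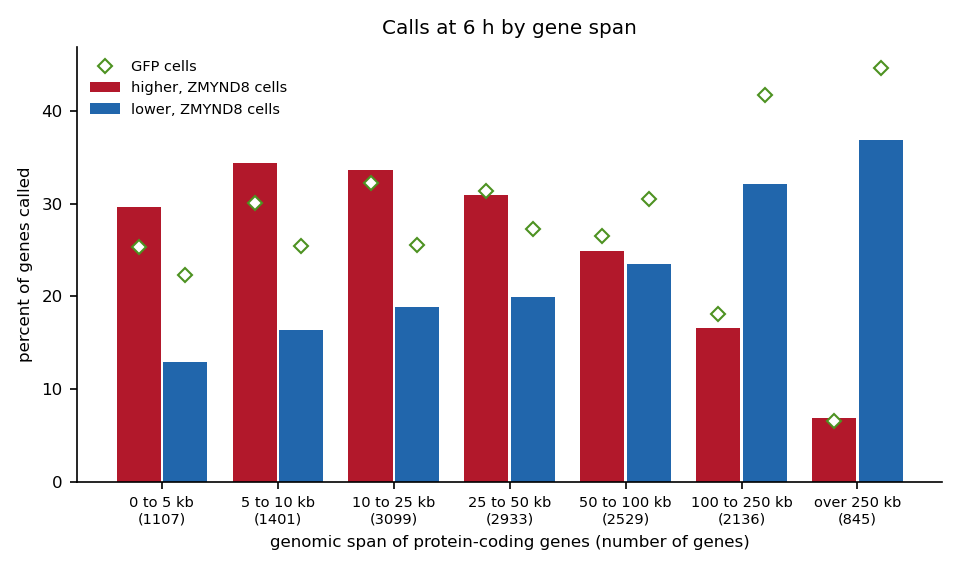
Percent of tested protein-coding genes called higher (red bars) or lower (blue bars) at 6 h in ZMYND8 cells (vertical axis) by genomic span of the gene in kb, with the number of genes in parentheses (horizontal axis), and the same shares in GFP cells as diamonds. The share of genes that fell grows from 12.9% to 36.9% with span, and the share that rose is highest at 5 to 10 kb (34.4%) and then declines to 6.86%.

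The same drug treatment in GFP cells, which shares no library with the ZMYND8 cells, showed how far this response belonged to the line. The lines already stood apart without the drug. On the log2 CPM scale, untreated libraries of ZMYND8 and GFP cells correlated at 0.925 to 0.926. Untreated and 6 h libraries of ZMYND8 cells correlated at 0.978 to 0.980. In GFP cells, 4163 genes rose (22.1%) and 4851 fell (25.8%). A total of 5957 genes passed in both lines, which is 77.6% of the calls in ZMYND8 cells and 66.1% of those in GFP cells, and 5801 of them moved the same way. Across all genes the log2 fold changes of both lines had a Pearson r of 0.42 and a Spearman rho of 0.60, given as a description since genes are not independent. Among the genes called in both lines the median size of change was 0.42 in ZMYND8 cells and 0.52 in GFP cells. The change was larger in GFP cells for 3973 of the 5801 genes that moved the same way.

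The difference between the lines was tested directly as an interaction. The log2 fold change was higher in ZMYND8 cells for 1478 genes (7.86%) and lower for 1037 (5.52%) at an adjusted p of at most 0.05, and 194 of these 2515 genes differed by at least 2-fold. With total counts in place of TMM factors this split turned, to 822 higher and 1730 lower. Of the 1717 genes called in ZMYND8 cells and not in GFP cells, 421 had a difference that passed.

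SOX4, a developmental transcription factor, stood at 57.9 and 57.7 CPM in untreated ZMYND8 cells and at 36.1 and 33.2 CPM at 6 h, and went from 117 and 125 CPM to 19.2 and 19.9 CPM in GFP cells. The fall was thus 1.89 ± 0.09 (SE) smaller on the log2 scale in ZMYND8 cells (adjusted p = 3.9e-13). KRT17, a basal keratin, rose in both lines from very different levels, from 148 and 151 CPM to 215 and 198 CPM in ZMYND8 cells and from 1.52 and 0.844 CPM to 5.20 and 6.42 CPM in GFP cells (difference -1.81, adjusted p = 2.4e-06). LAMA1, a laminin chain, had 1.62 and 2.58 CPM untreated and 3.84 and 3.41 CPM at 6 h in ZMYND8 cells, against 0.101 and 0.0527 CPM and then 1.57 and 1.82 CPM in GFP cells (difference -3.58, adjusted p = 0.00028). Its untreated GFP libraries held 2 and 1 counts, under the floor of 3 counts per library, so the size of this difference is uncertain. The homeobox gene MKX (1.18 against -0.87) and LMO2 (1.48 against -0.66) had opposite signs in the lines, with LMO2 at only 3 to 11 counts in ZMYND8 cells and 43 to 98 counts in GFP cells. The change of LMO2 within ZMYND8 cells did not pass without any one of the 4 libraries (adjusted p between 0.072 and 0.12), and that of LAMA1 did not pass without replicate 1 of the untreated cells (0.49, adjusted p = 0.23) or replicate 1 at 6 h (0.68, adjusted p = 0.1). SPARC, a matrix protein, fell in ZMYND8 cells from 28 and 18 counts to 7 and 6, and did not pass without replicate 1 of the untreated cells. Its levels in the lines were far apart, at 1.56 and 0.788 CPM in untreated ZMYND8 cells and 161 and 165 CPM in untreated GFP cells. In GFP cells it stood at 182 and 172 CPM at 6 h. The inositol kinase ITPK1 fell in ZMYND8 cells while its GFP libraries at 6 h were at 25.4 and 6.32 CPM.

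CDKN1A differed as well. In GFP cells it rose from 114 and 106 CPM to 236 and 231 CPM, while in ZMYND8 cells it reached 155 and 159 CPM, and the difference was -0.85 (adjusted p = 3.4e-10). ZMYND8 transcripts fell in GFP cells from 209 and 208 CPM to 93.8 and 99.4 CPM, and the lines differed by 1.01 (adjusted p = 4.3e-11). Construct and endogenous transcripts cannot be told apart in this value.

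For replication genes the interaction was called lower in ZMYND8 cells for 21 of 56 and higher for 0, beside 5.52% and 7.86% of all genes, and the other genes did not pass. The median log2 ratio of ZMYND8 to GFP cells over this list was 0.18 untreated and 0.02 at 6 h. CDC25A reached 83.6 and 89.8 CPM in ZMYND8 cells and 83.7 and 87.3 CPM in GFP cells at 6 h, after 34.8 and 36.8 CPM and 22.8 and 22.4 CPM untreated. Of the 45 mitotic genes, 18 interactions were called lower and 1 higher, and the other genes did not pass. Their median log2 ratio was 0.40 untreated and 0.26 at 6 h. Ribosomal protein genes had 55 of 81 interactions higher and 0 lower. In GFP cells 10 of these genes rose and 16 fell, beside 22.1% and 25.8% of all genes in that line. Of the 21 heat shock genes 8 interactions were lower and 2 higher, and of the 32 cytokine and NF-kB genes 13 were higher and 2 lower. The plot of both lines shows the named genes with a called difference on either side of the diagonal.

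**Figure D4:**
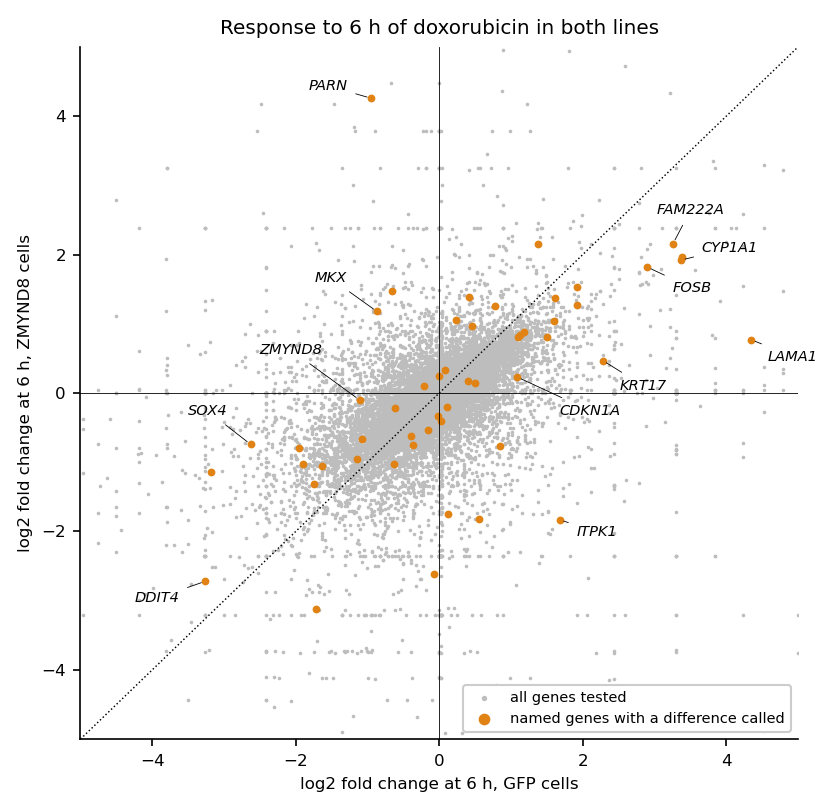
Log2 fold change at 6 h of doxorubicin in ZMYND8 cells (vertical axis) against GFP cells (horizontal axis), with 1 grey point per gene tested, orange points for named genes whose difference between the lines passed, and a dotted line of equal change; 43 genes lie outside the plotted range. FAM222A, CYP1A1, FOSB and LAMA1 lie below the line of equal change and SOX4, PARN and ZMYND8 above it.

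Levels at 48 h stood beside those at 6 h for the named genes, a comparison that shares the 6 h libraries with the main one. Of the 10 largest falls, 6 were higher at 48 h than at 6 h by the test. TP63 had 2.44 and 2.38 CPM at 48 h, beside 0.591 and 0.525 CPM at 6 h and 2.90 and 3.54 CPM untreated. GDF15 (1.02), BBC3 (1.56) and IL11 (1.09) also had positive log2 fold changes from 6 to 48 h that passed. DDIT4 did not return, with 51.3 and 53.1 CPM at 48 h (-0.37 against 6 h, adjusted p = 1.9e-06). Of the 10 largest rises, 3 went on rising, among them CYP1A1 and RELN, and 2 fell, ID2 and FZD8. CDKN1A rose further by 0.72 and POLR2A by 0.36. The plot of levels by library shows these courses in both lines.

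**Figure D5:**
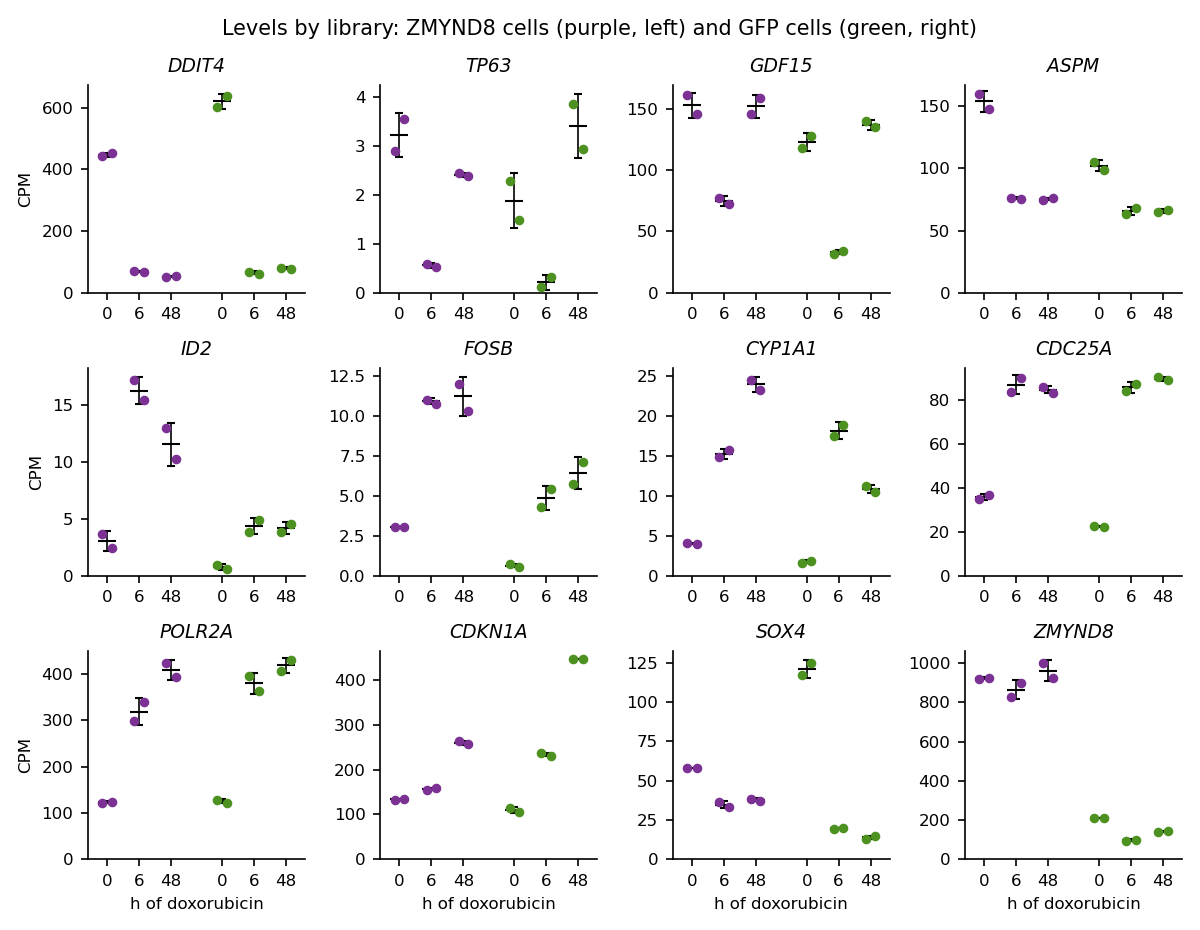
CPM (vertical axes, each from 0) of 12 genes at 0, 6 and 48 h of doxorubicin in ZMYND8 cells (purple) and GFP cells (green), with 1 point per library and the mean with its SD (n = 2) in black. DDIT4 is low at 6 and 48 h, and TP63 and GDF15 are low at 6 h only. CDKN1A is higher in GFP cells at 6 and 48 h. SOX4 is higher in GFP cells at 0 h and lower there at 6 and 48 h.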

How the data were processed

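Poly(A) RNA was sequenced as read pairs. The authors deposited raw counts, 1 value for each gene and library, made from read pairs by featureCounts 1.6.4 (reverse strand) over GENCODE 31 exons on hg38. The sources used here name different aligners (TopHat with Bowtie2, and HISAT2). Counts were tested with edgeR 4.0.16 in R 4.3.3 (TMM factors, filterByExpr, quasi-likelihood test, Benjamini-Hochberg adjustment over 18801 genes), fitted to all 12 inducible libraries with 1 mean per condition. Within 2 against 2 libraries an exact two-sided permutation test cannot go below p = 0.333, so only model p-values are given. Levels are CPM with TMM factors, SE belong to log2 fold changes, and no count was replaced in the fits or levels. Where both libraries of a group held at most 3 counts, a bound on the fold used a floor of 3 counts per library. This floor covers counting error only. DESeq2 1.42.0, other scalings and filters, a replicate block, and fits without each replicate were alternatives, and a robust estimate of spread was added after seeing the data. The script was tested on simulated data.

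Groups follow the labels, which call the 2 samples of a group biological replicates. The values held no sign that the replicate number marks paired samples. Deviations from the group means correlated at -0.019 between untreated and 6 h over 12859 genes, and at -0.185 between untreated and 48 h ZMYND8 cells. This cannot show whether samples of the same number were handled together. Replicates differed by more than sampling noise, so none was counted as a duplicate. The 4 libraries follow from the labels, but the comparison and the gene lists were chosen with earlier results of these data known. Named genes were those with an average log2 CPM of at least 1 and separate groups among the 10 largest rises and 10 largest falls, up to 2 called rises and 2 called falls per list, up to 5 per direction of difference between the lines, and a few fixed genes (ZMYND8, CDKN1A, MDM2, TOP2A, TOP2B, FOS, EGR1, ATF3, MYC, HEXIM1 and the stemness list). Other list members (CCNE1, ORC1, E2F1, PCNA, MCM2 to MCM7, KIF20A, CDC25C, PLK1, CCNB1, MEPCE, CDK9, ID3, ID4, EZH2, HDAC2, KDM5A, KDM5B and KDM5C) were named after their values were seen. A few genes under these rules are not reported here.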

Additional observations from a re-analysis of the deposited data

Results flagged for a closer look

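The change at 6 h differed between ZMYND8 and GFP cells for the named genes given here, by the test of the difference itself (edgeR's quasi-likelihood test, adjusted p at most 0.05). Values are log2 fold changes in ZMYND8 cells minus those in GFP cells. Genes that rose less or fell further in ZMYND8 cells by over 1 on the log2 scale were LAMA1 (-3.58), ITPK1 (-3.51), ZNF660 (-2.54), SPARC (-1.87), KRT17 (-1.81), NRARP (-1.61), CYP1A1 (-1.45), FZD8 (-1.43), MIR210HG (-1.39), FAM222A (-1.10) and FOSB (-1.08). Smaller differences in the same direction were found for CDKN1A (-0.85), HSPA8 (-0.69), CDC25A (-0.65), CDC6 (-0.55), SNHG4 (-0.43), ASPM (-0.39), ATF5 (-0.39), JUND (-0.38), CDK1 (-0.37), DNAJB1 (-0.37), GINS1 (-0.31), TOP2A (-0.31), SNHG1 (-0.31), EXO1 (-0.29), SLC7A5 (-0.28), POLR2A (-0.23) and H2AX (-0.22). Differences toward higher values in ZMYND8 cells of up to 1 were found for DUSP4 (0.18), CD44 (0.26), SOX9 (0.26), VIM (0.31), KMT2A (0.40), ZEB1 (0.41), CLDN4 (0.45), CCN2 (0.48), TNFAIP3 (0.52), DDIT4 (0.53), IL11 (0.59), RCBTB2 (0.78), ZNF703 (0.82), GDF15 (0.87) and CSF2 (0.97). Those above 1 were ZMYND8 (1.01), CHAC1 (1.17), SOX4 (1.89), ZNF467 (2.04), MKX (2.05), LMO2 (2.14) and PARN (5.21). For CDKN1A, HSPA8, CDC25A, CDC6, CYP1A1 and FOSB both lines rose and the GFP line rose more. For DDIT4, GDF15, IL11, CLDN4 and SOX4 both lines fell and the ZMYND8 line fell less. For ASPM and JUND both lines fell and the ZMYND8 line fell more. For CCN2 and TNFAIP3 both lines rose and the ZMYND8 line rose more. The 6 h libraries of ITPK1 in GFP cells, at 25.4 and 6.32 CPM, and the 48 h libraries of PARN in ZMYND8 cells, at 3.50 and 0.255 CPM, were uneven between replicates. LAMA1 held only 2 and 1 counts in untreated GFP cells, and SPARC at most 28 counts in any library of ZMYND8 cells. Several of these differences were fragile, as 21 of the 52 called lost the call in at least 1 of the 8 fits without a library, and 23 in at least 1 alternative. Without a library, MIR210HG lost it in 7 of 8 fits (adjusted p up to 0.2), ZNF660 (0.18) and SNHG4 (0.29) in 6, H2AX (0.3), POLR2A (0.25), DUSP4 (0.11) and RCBTB2 (0.23) in 5, SOX9 (0.21), FOSB (0.16) and EXO1 (0.13) in 4, FAM222A (0.16), CSF2 (0.15), SNHG1 (0.14), GINS1 (0.12), ATF5 (0.083) and KMT2A (0.081) in 2, and SPARC (0.092), LMO2 (0.061) and IL11 (0.051) in 1. ITPK1 and PARN lost it in 1 other alternative each.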

How the results depend on the processing

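The number of genes changed at 6 h stayed within 1.5 times the reported 7674, in each direction, under every alternative run, between 6406 (DESeq2) and 7774 (robust spread) among fits with all libraries. Leaving out 1 library gave 6526 to 6777 genes, with 3550 to 3710 higher and 2903 to 3067 lower, and 575 to 646 past the second cutoff (unadjusted p and fold), and between 6161 and 6356 of the 7674 genes were called again. The count past the second cutoff was less stable, at 101 of 513 with at least 10 counts in every library, 889 with no filter beyond 1 count and 254 with only the 4 libraries of the comparison. For the difference between the lines, 937 genes were higher with DESeq2, and 822 were higher and 1730 lower with total counts, beside 1478 and 1037, and leaving out 1 library gave 1842 to 2274 genes, with 1031 to 1345 higher and 759 to 944 lower. The percent of called genes that were higher was 53.5, and 39.7 with total counts. The cause of these shifts was not tested. Values of named genes at 6 h kept direction and call in 1332 cases, lost the call in 71 (23 genes), gained it in 11, and reversed in 1, MT-ND3 (-0.19), which ranged from -0.38 to 0.02 with 1 library left out. Named differences between the lines lost the call in 103 cases (23 genes) and gained it in 31 (14 genes). With a replicate block 7582 genes changed, 494 passed the second cutoff and 2393 differed between the lines. Whether the replicate numbers pair the samples is not known, so these values say nothing on strength. With total counts the replication genes had 36 higher and 2 lower, and the mitotic genes 0 higher and 36 lower.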

Other observations

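Hypoxia-inducible genes, a list put together after values were seen, were mostly lower at 6 h. Of 40 tested, 30 fell and 3 rose, with a median log2 fold change of -0.34 beside -0.01 for all genes, and the share of all genes that fell was 19.0%. Besides DDIT4 and MIR210HG these included the transporter SLCO4A1, from 43.6 and 43.9 CPM to 9.22 and 9.66 CPM (-2.21 ± 0.09, adjusted p = 1.1e-16), the glycolytic regulator PFKFB4 (-1.82), the glucose transporter SLC2A3 (-1.61), NDRG1 (-1.21) and the angiogenic factor VEGFA, from 494 and 496 CPM to 330 and 340 CPM (-0.56 ± 0.04, adjusted p = 5.6e-12). In GFP cells 36 fell and 2 rose, beside 25.8% lower and 22.1% higher over all genes in that line. The peptide hormone ADM rose in ZMYND8 cells, from 70.8 and 68.1 CPM to 146 and 142 CPM (1.06 ± 0.05, adjusted p = 3.3e-15), beside -0.39 in GFP cells.

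Among 28 cholesterol and fatty acid synthesis genes, also listed after values were seen, 8 rose and 13 fell in ZMYND8 cells (median -0.12), while 15 rose and 10 fell in GFP cells (median 0.21). Over all genes the shares were 21.8% higher and 19.0% lower in ZMYND8 cells and 22.1% and 25.8% in GFP cells. INSIG1, which holds the sterol-sensing complex in the endoplasmic reticulum, went from 219 and 214 CPM to 151 and 160 CPM in ZMYND8 cells (-0.48 ± 0.04, adjusted p = 2.1e-10), beside 0.49 in GFP cells. The synthase HMGCS1 had -0.16 beside 0.76. The difference was called lower in ZMYND8 cells for 11 of the 28 genes and higher for 2, beside 5.52% and 7.86% of all genes.

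Outside the lists, and picked after its values were seen, THBS1, a matrix glycoprotein that TGF-beta induces, rose from a mean of 285 to 950 CPM (1.74 ± 0.04, adjusted p = 1.3e-20), and TAGLN, an actin-binding protein, from 11.9 to 41.0 CPM (1.78 ± 0.09, adjusted p = 2.2e-14).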
